A study of Rattus norvegicus with 28 samples.

Results

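Axon guidance ligands and receptors were followed in primary rat microglia and astrocytes exposed to an endogenous retroviral envelope protein or to bacterial lipopolysaccharide. The 70 genes are all symbols of the deposited tables that name a semaphorin of classes 3 to 7, a plexin, an ephrin or Eph receptor, a netrin, an Unc5 receptor, a Slit, a Robo, a neuropilin, or Draxin, out of 28459 symbols listed in any table. The match was by symbol, with no measured value, and it also takes in Unc5cl, an Unc5c-like gene that is not a guidance receptor. The cultures were started from Wistar rat cortex on postnatal day 1 and kept in flasks for 10 days, in medium with 10% fetal calf serum. Microglia were shaken off, purified with CD11b/c magnetic beads and stimulated 1 day later, and astrocytes were stimulated 3 days after their isolation. In each cell type 4 groups were made: recombinant HERV-W ENV, the envelope protein of a human endogenous retrovirus, at 1 µg/ml, its buffer alone, lipopolysaccharide (LPS) at 100 ng/ml, and water (H2O) alone. Each group held 3 libraries in microglia and 4 in astrocytes, with no genetic change in any. How long the stimuli were applied, and whether replicate libraries stem from separate litters or cultures, is not stated in the labels. Each p-value thus weighs a change only against how far the libraries of a group differ, a spread that may be technical.

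Guidance proteins steer growing axons by attraction or repulsion. Semaphorins signal through plexins, with neuropilins as co-receptors for the secreted class 3, ephrins act on Eph receptors between touching cells, netrins act on Dcc, Neo1 and Unc5 receptors, and Slits act on Robo receptors. Many also act outside axons: class 4, 6 and 7 semaphorins are known from immune cells, plexins from microglia and macrophages, and ephrins with their receptors from contacts between astrocytes and other brain cells. Draxin is a secreted repellent that binds Dcc and netrin-1.

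Libraries held 26513999 to 42724111 counts in microglia and 23742228 to 35326938 in astrocytes, so that 3 counts, the limit that a count of 0 allows, came to 0.0702 to 0.126 CPM, the count of a gene per 1000000 counts of its library. Levels are given in this unit, in the order of the replicate numbers, and a log2 change, printed ± its standard error (SE), comes from edgeR, which scales the libraries in another way (TMM), so that the change can differ slightly from the ratio of CPM values. The summed level of 10 microglial markers was 4026 to 8016 CPM in the microglial libraries and 136 to 589.8 CPM in the astrocyte libraries. The sum of 10 astrocyte markers was 2616 to 11650 CPM in astrocytes and 24.5 to 294.3 CPM in microglia. Both labels thus matched their markers, and transcripts of the other cell type were present in both cultures. Markers of the oligodendrocyte lineage in microglia, and of fibroblasts and mural cells in astrocytes, differed between groups and are given beside the results they moved with. Summed endothelial markers in microglia were 42.9 to 54.8 CPM in buffer and 87.9 to 182 CPM with ENV. They were 52.9 to 98.4 CPM in H2O and 91.4 to 216 CPM with LPS. Their part in the levels of guidance genes was not tested.

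As with most genes, the levels of guidance transcripts differed between the 2 cell types before any stimulus. Of the 70 genes, 22 were at 1 CPM or more in all 12 microglial libraries and 51 in all 16 astrocyte libraries. Both conditions were met by 19 of them, and 7 other genes stayed under 1 CPM in every library. The shares of all genes at these levels were not counted. Epha6, Epha8 and Unc5cl were missing from 1 or more of the astrocyte tables and at or near 0 elsewhere. In buffer, 63 of the genes could be tested between cell types: 14 were higher in microglia and 36 higher in astrocytes, or 79.4%, against 70% of all genes tested (33.6% and 36.4%). In H2O, 10 of 62 were higher in microglia and 40 higher in astrocytes, 80.6% against 70.9% of all genes (33.2% and 37.7%). Cell type cannot be told apart here from the separate preparations and gene tables.

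**Figure D1:**
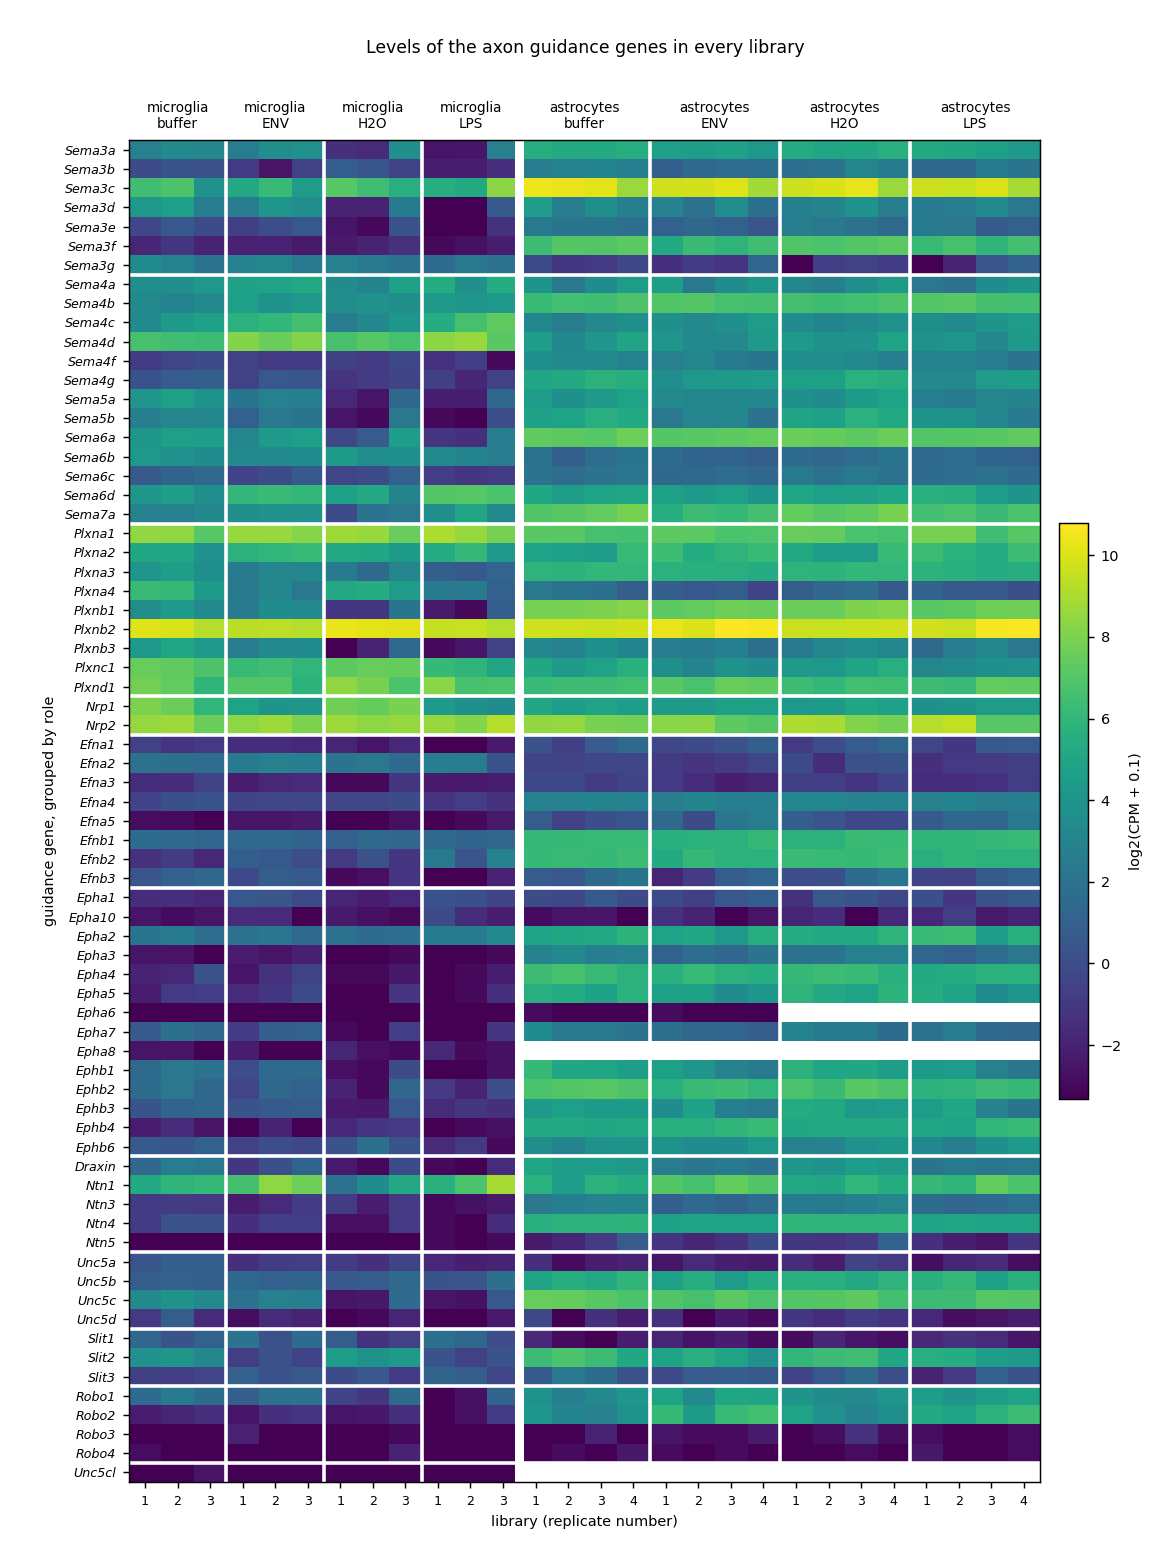
Level of each of the 70 guidance genes in each of the 28 libraries, as log2 of CPM plus 0.1 (colour), with genes in rows grouped by role and libraries in columns by group and replicate number; white cells are genes that a table does not list. Most ephrin and Eph rows, and Unc5b, Unc5c, Robo1 and Robo2, are brighter in the 16 astrocyte libraries. Nrp1, Plxna4, Plxnc1 and Sema4d are brighter in the vehicle-treated microglia.

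Semaphorins and their receptors made up most of the microglial side. They were 10 of the 14 genes higher there in buffer and 9 of the 10 in H2O. More semaphorins were higher in astrocytes, however. In buffer, 1 of 7 class 3 and 3 of 13 membrane semaphorins tested were higher in microglia, and 5 and 6 in astrocytes. In H2O it was 1 and 2 against 4 and 8. Of 9 plexins, 5 were higher in microglia and 2 in astrocytes in either vehicle. Nrp1, a co-receptor for class 3 semaphorins, was at 259, 188 and 63.1 CPM in buffer-treated microglia and at 33.8, 22.9, 29.7 and 23.6 CPM in buffer-treated astrocytes (log2 difference 2.98 ± 0.42, adjusted p = 0.000351). Plxna4, a plexin that pairs with neuropilins, was at 72.3, 67.2 and 20.5 CPM against 4.96, 4.25, 3.52 and 1.84 CPM (4.22 ± 0.50, adjusted p = 0.000147). Plxnc1, the plexin that binds Sema7a, was at 181, 160.0 and 116 CPM against 35.1, 19.6, 27.9 and 50.0 CPM (2.58 ± 0.28, adjusted p = 9.47e-05). In each of these genes every microglial library stood above every astrocyte library. Sema4d, a transmembrane semaphorin that binds plexin-B1 and Cd72, was at 80.7 to 137 CPM in the vehicle-treated microglia and 9.34 to 30.6 CPM in the vehicle-treated astrocytes. Plxna1 was also higher in microglia in both vehicles, by 1.56 (adjusted p = 0.00343) and 1.74 (adjusted p = 0.00399) on the log2 scale, and Plxnd1 by 1.22 (adjusted p = 0.016) and 2.03 (adjusted p = 0.00215).

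Ephrins, Eph receptors and the netrin, Slit and Robo genes lay mostly on the astrocyte side. Of the 11 Eph receptors tested, 10 were higher in astrocytes in buffer and 11 in H2O, and 0 were higher in microglia. Epha4, a receptor for ephrins of both classes, was at 49.1 to 102 CPM in the vehicle-treated astrocytes and 0.0242 to 1.01 CPM in the vehicle-treated microglia. Efnb2, a transmembrane ligand of EphB receptors, was at 69.5 to 85.1 CPM against 0.202 to 1.04 CPM, and Efnb1, its relative, at 52.7 to 79.3 CPM against 1.87 to 3.06 CPM. Among the secreted semaphorins, Sema3f was at 80.8 to 152 CPM in astrocytes and 0.101 to 0.385 CPM in microglia, and Sema3c, a ligand of neuropilins and plexin-D1, at 402 to 1348 CPM against 14.1 to 141 CPM. Each of these genes was called in both vehicles. Efna2 ran the other way, at 2.93 to 4.89 CPM in vehicle-treated microglia and 0.261 to 1.12 CPM in vehicle-treated astrocytes. So did Slit1 (log2 difference 4.66, adjusted p = 0.000431) and, with overlapping groups, Ntn1 (0.77, adjusted p = 0.0472) in buffer. In H2O, Slit1 was too low to be tested and Ntn1 was not called (-0.86, adjusted p = 0.279).

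In microglia, ENV and LPS moved guidance genes in both directions, among them higher Sema4d, Sema6d and Sema4c and lower Nrp1, Plxna4, Plxnc1 and Slit2. Of 55 guidance genes tested, 12 were higher and 8 lower with ENV, 36.4% in all, against 30.9% of all genes tested (16.2% higher and 14.7% lower), a share near the background. The median log2 change of the tested members was -0.26, against -0.03 over all genes. With LPS, 9 of 41 tested members were higher and 5 lower, 34.1% against 29.8% of all genes (16% and 13.8%), with medians of -0.09 and -0.02. Members called higher with both agents numbered 8, of 12 with ENV and 9 with LPS. Those called lower with both numbered 4, of 8 and 5. The share of all genes called with both agents was not counted. The filter on low counts left 15 members untested with ENV and 29 with LPS. In bulk RNA, fewer cells of a type and less RNA per cell cannot be told apart, here and in every later comparison.

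Of the 13 membrane semaphorins tested with ENV, 6 rose, 1 fell and 6 were not called, with a median log2 change of -0.12. Of 11 tested with LPS, 5 rose and 0 fell, with a median of 0.83. Sema4d was at 100.5, 86.8 and 80.7 CPM in buffer and 283, 195 and 280.0 CPM with ENV (log2 change 1.71 ± 0.19, adjusted p = 0.00118), and at 102, 137 and 101 CPM in H2O and 322, 386 and 142 CPM with LPS (1.63 ± 0.38, adjusted p = 0.0242). The groups did not overlap with either agent, although LPS replicate 3 lay close to H2O replicate 2. Sema6d, a ligand of plexin-A1, was at 17.8, 23.2 and 12 CPM in buffer and 65.7, 78.7 and 63.6 CPM with ENV (2.18 ± 0.23, adjusted p = 0.000812), and at 26.7, 36 and 8.14 CPM in H2O and 127, 136 and 109 CPM with LPS (2.69 ± 0.54, adjusted p = 0.0153). Every treated library of Sema6d was well above every vehicle library. Sema4c, a ligand of plexin-B2, was at 10.6, 18.9 and 26.6 CPM in buffer and 52.7, 65.5 and 96.2 CPM with ENV (2.12 ± 0.36, adjusted p = 0.00588), and at 5.85, 9.3 and 16.7 CPM in H2O and 42.2, 103 and 161 CPM with LPS (3.58 ± 0.60, adjusted p = 0.00909). Its groups did not overlap either, and the library numbered 3 was the highest in all 4 groups.

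Other semaphorins of these classes moved less. Sema4a, a semaphorin known from dendritic cells and T cells, was at 12.7, 12.6 and 18 CPM in buffer and 27, 28.8 and 36.4 CPM with ENV (1.29 ± 0.20, adjusted p = 0.00419). With LPS it was at 43.2, 13.6 and 42.3 CPM against 11.1, 8.18 and 25.3 CPM in H2O (1.49 ± 0.59, adjusted p = 0.102), where the groups overlapped, and the replicate block gave adjusted p = 0.0295. Sema4b was at 10.4, 8.16 and 9.9 CPM in buffer and 24.5, 14.6 and 19.2 CPM with ENV (1.24 ± 0.25, adjusted p = 0.0103), and at 12.4, 14.1 and 12.8 CPM in H2O and 19.6, 17.1 and 19.9 CPM with LPS (0.83 ± 0.14, adjusted p = 0.00964), without overlap in either pair. Sema7a, a membrane-anchored semaphorin that binds integrins and plexin-C1, was at 6.94, 6.93 and 9.67 CPM in buffer and 12.3, 14.1 and 13.8 CPM with ENV (0.96 ± 0.19, adjusted p = 0.0101). In the LPS set it was at 0.883, 4.12 and 4.8 CPM in H2O and 12, 31.9 and 10.3 CPM with LPS (2.77 ± 0.72, adjusted p = 0.0325). All H2O libraries of Sema7a lay below all buffer libraries. Of the secreted class 3 members, 0 of 6 tested were called with ENV and 1 of 4 with LPS. Sema3b fell with LPS, from 1.74, 1.26 and 0.655 to 0.127, 0.131 and 0.289 CPM (-2.43 ± 0.59, adjusted p = 0.0267, and adjusted p = 0.0534 with the replicate block). Sema3a, a ligand of Nrp1, gave 0.45 (adjusted p = 0.294) with ENV and -0.59 (adjusted p = 0.847) with LPS, and Sema3c gave -0.49 (adjusted p = 0.64) with ENV and 0.83 (adjusted p = 0.521) with LPS. LPS replicate 3 was at 320 CPM of Sema3c against 43.7 and 37.4 CPM in the other LPS libraries, and replicates 1 and 2 alone gave a log2 change of -1.22 (adjusted p = 0.0214).

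**Figure D2:**
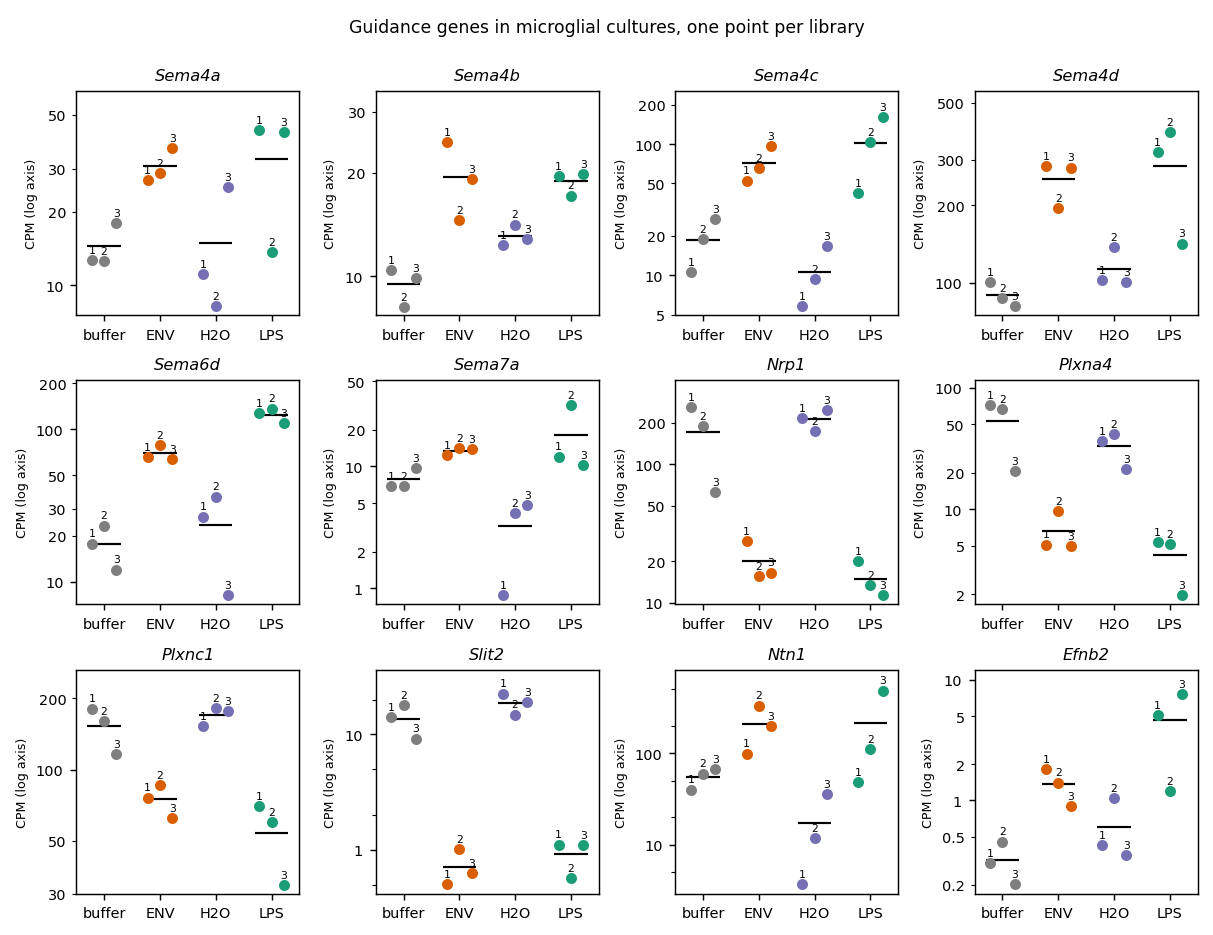
Levels of 12 guidance genes in the microglial cultures on a log axis of CPM, with 1 point per library labelled by its replicate number and the group mean as a bar. Nrp1, Plxna4, Plxnc1 and Slit2 are lower in all treated libraries than in all vehicle libraries, and Sema4c, Sema4d and Sema6d are higher in all treated libraries than in all vehicle libraries.

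Of the 11 plexins and neuropilins, 5 fell and 1 rose with ENV in microglia, and with LPS 3 of the 10 tested fell and 0 rose. Nrp1 went from 259, 188 and 63.1 CPM in buffer to 27.9, 15.6 and 16.5 CPM with ENV (-2.87 ± 0.53, adjusted p = 0.0077), and from 215, 172 and 245 CPM in H2O to 20.1, 13.4 and 11.4 CPM with LPS (-3.50 ± 0.29, adjusted p = 0.00139). Plxna4 went from 72.3, 67.2 and 20.5 to 5.12, 9.6 and 4.98 CPM with ENV (-2.82 ± 0.50, adjusted p = 0.00671) and from 36.7, 41.9 and 21.4 to 5.39, 5.14 and 1.97 CPM with LPS (-2.69 ± 0.47, adjusted p = 0.0104). In both genes no treated library reached the lowest vehicle library. Plxnc1 went from 181, 160.0 and 116 to 76.2, 86.3 and 62.4 CPM with ENV (-0.82 ± 0.19, adjusted p = 0.019) and from 152, 182 and 176 to 70.0, 60.2 and 32.6 CPM with LPS (-1.33 ± 0.29, adjusted p = 0.0204). Its groups were also apart, by a narrower margin. Plxna3 was at 16.5, 22.6 and 12.9 CPM in buffer and 5.59, 8.39 and 8.68 CPM with ENV (1.99-fold lower, adjusted p = 0.0198); with LPS it gave -1.29 (adjusted p = 0.0765), and the replicate block gave adjusted p = 0.0322.

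Of the other plexins and Nrp2, Plxna2 rose and Plxnb3, described with Sema5a, fell with ENV, and 0 were called with LPS. Plxnb2, the receptor of Sema4c and Sema4d, was at 1102, 995 and 585 CPM in buffer and 642, 672 and 592 CPM with ENV (-0.29 ± 0.23, adjusted p = 0.371), groups that overlapped through buffer replicate 3. With LPS it was at 753, 783 and 586 CPM against 1314, 1179 and 1122 CPM in H2O (-0.46 ± 0.18, adjusted p = 0.102), where the groups did not overlap but the test did not pass. Plxna2 rose with ENV, from 33.3, 34.3 and 14.1 to 53.2, 62.8 and 72.3 CPM (1.41 ± 0.32, adjusted p = 0.0155), and gave 0.73 (adjusted p = 0.284) with LPS. Plxna1, the receptor of Sema6d, gave 0.56 (adjusted p = 0.255) and 0.49 (adjusted p = 0.425). Plxnd1 gave -0.31 (adjusted p = 0.666) and -0.09 (adjusted p = 0.92), and Nrp2, the second neuropilin, 0.28 (adjusted p = 0.505) and 0.47 (adjusted p = 0.261). These 4 genes lay at 137 to 519.6, 14.1 to 72.3, 55.7 to 353 and 194 to 597 CPM over the 12 microglial libraries, in the order Plxna1, Plxna2, Plxnd1 and Nrp2.

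Slit2, the secreted ligand of Robo receptors, had the largest called fall among the members with either agent. It went from 14, 17.8 and 9.2 CPM in buffer to 0.505, 1.01 and 0.627 CPM with ENV (-4.04 ± 0.34, adjusted p = 0.000426). With LPS it went from 22.5, 14.8 and 19 to 1.11, 0.574 and 1.1 CPM (-4.02 ± 0.35, adjusted p = 0.00155). All 6 treated libraries were at 1.11 CPM or less and all 6 vehicle libraries at 9.2 CPM or more. Slit3 was low throughout, at 0.528, 0.49 and 0.674 CPM in buffer and 1.88, 1.08 and 1.42 CPM with ENV (1.56 ± 0.36, adjusted p = 0.0166). Of the Slit receptors only Robo1 could be tested, with changes of -0.03 (adjusted p = 0.96) and -0.48 (adjusted p = 0.846). Ntn1, the founding netrin, went from 39.9, 59.8 and 67 CPM in buffer to 99.2, 331 and 199.7 CPM with ENV (2.10 ± 0.41, adjusted p = 0.00988), and from 3.71, 11.7 and 35.8 to 48.5, 111 and 483 CPM with LPS (3.97 ± 1.16, adjusted p = 0.0465). Its groups did not overlap, but the H2O and the LPS libraries were widely spread, and without LPS replicate 3 the change was 2.54 (adjusted p = 0.0754). The netrin receptor Unc5a fell with ENV from 1.21, 1.82 and 1.85 to 0.289, 0.457 and 0.495 CPM (-1.77 ± 0.34, adjusted p = 0.009), and Unc5b gave 0.47 (adjusted p = 0.183) and 0.34 (adjusted p = 0.671).

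Among ephrins and Eph receptors few genes were well counted in microglia. Efnb2 went from 0.302, 0.455 and 0.202 CPM in buffer to 1.8, 1.4 and 0.89 CPM with ENV (2.30 ± 0.44, adjusted p = 0.00903), and from 0.429, 1.04 and 0.351 to 5.09, 1.2 and 7.59 CPM with LPS (3.24 ± 0.81, adjusted p = 0.03). The LPS groups were apart only narrowly at replicate 2, and the replicate block gave adjusted p = 0.0774. Efna2, a membrane-anchored ephrin, was at 3.81, 3.61 and 3.3 CPM in buffer and 5.59, 6.92 and 6.46 CPM with ENV (1.02 ± 0.18, adjusted p = 0.00615). With LPS its replicates parted, at 6.41, 6 and 1.16 CPM against 4.26, 4.89 and 2.93 CPM (0.47 ± 0.63, adjusted p = 0.598). Epha1, an Eph receptor for ephrin-A ligands, was at 0.264, 0.28 and 0.202 CPM in buffer and 1.3, 1.21 and 0.759 CPM with ENV (2.32 ± 0.38, adjusted p = 0.00482), and at 0.177, 0.121 and 0.211 CPM in H2O and 1.09, 0.992 and 0.604 CPM with LPS (2.69 ± 0.46, adjusted p = 0.00964). Epha2, the receptor of Efna1, rose with LPS from 3.94, 2.95 and 3.35 to 5.42, 5.69 and 10.2 CPM (1.36 ± 0.32, adjusted p = 0.0229) and gave -0.05 (adjusted p = 0.905) with ENV. Efnb1 gave 0.08 (adjusted p = 0.811) and 0.36 (adjusted p = 0.412), and Ephb2 -0.80 (adjusted p = 0.216) and -0.49 (adjusted p = 0.813). Efna1 gave -0.68 (adjusted p = 0.225) with ENV and, like Draxin, was too low to be tested with LPS. Epha4, Efna5 and Sema3f were too low in microglia to be tested with either agent.

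The calls in microglia rested on 3 libraries a group. With ENV, 16 of the 20 calls held without each library in turn. A joint fit of the 4 microglial groups called 12 and ended the calls of Plxnb3 (adjusted p = 0.514), Sema5a (0.425), Sema7a (0.223), Efna2 (0.165), Ntn1 (0.12), Plxna3 (0.0769), Sema4a (0.0748) and Slit3 (0.0599). Plxna3 was lost without ENV replicate 1 or 2 or buffer replicate 1 or 2 (adjusted p up to 0.0669), Plxnb3 without buffer replicate 2 (0.057), Plxnc1 without ENV replicate 1 or 3 or buffer replicate 1 or 2 (up to 0.061), and Slit3 without ENV replicate 1 or buffer replicate 1 or 2 (up to 0.0662). With LPS, the calls of Nrp1, Plxna4, Sema4c and Slit2 held without each library in turn. Ntn1 was lost without each library in turn (adjusted p 0.0501 to 0.154) and without the filter on low counts (0.0562), Sema3b without the filter (0.0518), Sema4b only without H2O replicate 1 (0.0508), and Sema6d without H2O replicate 1 (0.0651) or LPS replicate 2 (0.056). Sema4d and Sema7a were lost on leaving out any 1 library other than LPS replicate 3 (up to 0.0983 and 0.102), and Efnb2 on leaving out any 1 other than LPS replicate 2 (up to 0.114). Sema3b was lost on leaving out replicate 1 or 2 of either group (up to 0.127), Plxnc1 without any 1 of the H2O libraries or LPS replicate 2 (up to 0.0765), Epha1 without LPS replicate 2 or H2O replicate 1 or 2 (up to 0.0709), and Epha2 without any 1 of the H2O libraries (up to 0.0868). The replicate block added Sema6c (-0.98, adjusted p = 0.0976 without and 0.0252 with it) to the ENV calls, and Ephb6 (-2.81, 0.0672 and 0.0261) and Sema6a (-1.59, 0.496 and 0.0331) to the LPS calls. The 14 calls became 4, 6 and 8 without H2O replicates 1, 2 and 3, and 9, 7 and 16 without LPS replicates 1, 2 and 3.

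Promoter sequences are shown for the 2 called microglial genes whose window held a searched motif. RefSeq promoter windows of the assembly GRCr8, from 250 bases before to 50 after the start, were at hand for 55 of the 70 members. They were searched on both strands for the NF-kB consensus, the interferon-stimulated response element GAAANNGAAA and the AP-1 site TGANTCA. The NF-kB consensus was in 6 of the 55 windows (10.9%) and in 7.6% of 27457 windows, the response element in 2 (3.64%) and 3.77%, and the AP-1 site in 1 (1.82%) and 7.33%. Of the 8 genes called higher in microglia with both agents, 6 had a window, and 0 of these held any of the 3 motifs. In Efna2, which rose with ENV, the bases before the start held the NF-kB consensus at 2 places, the second being 2 overlapping matches. In Plxnc1, which fell with both agents, they held the response element once. A match describes letters, not a bound site. The 250 bases before the start are given from 5′ to 3′, on the minus strand at chr7:10177720-10177969 (Efna2) and chr7:31430606-31430855 (Plxnc1), with the matches in capitals.
Efna2: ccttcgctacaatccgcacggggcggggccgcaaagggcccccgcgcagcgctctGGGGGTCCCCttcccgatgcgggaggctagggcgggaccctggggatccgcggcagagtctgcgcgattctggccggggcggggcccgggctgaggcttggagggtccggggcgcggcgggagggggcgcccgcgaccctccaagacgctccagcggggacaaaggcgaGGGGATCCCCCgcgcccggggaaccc
Plxnc1: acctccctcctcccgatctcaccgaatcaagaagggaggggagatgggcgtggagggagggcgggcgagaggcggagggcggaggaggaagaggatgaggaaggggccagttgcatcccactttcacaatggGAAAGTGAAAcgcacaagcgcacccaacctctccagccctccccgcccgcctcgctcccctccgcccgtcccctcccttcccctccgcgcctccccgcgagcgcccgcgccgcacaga

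The 2 agents were not told apart by these genes in microglia. The ENV change minus the LPS change was tested for 57 members, and 0 passed edgeR's test after adjustment, as for all 13270 genes tested (0% called). At an unadjusted p under 0.05 there were 2 members, and DESeq2 called 0. A p that misses the threshold does not show that the responses were alike.

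A further set of guidance genes differed between the microglial libraries in roughly the same order as transcripts of other cell types. The summed level of 10 oligodendrocyte-lineage markers was 334, 357 and 308 CPM in buffer, 83.3, 173 and 160.4 CPM with ENV, 16.7, 17.1 and 179 CPM in H2O, and 5.04, 5.46 and 35.2 CPM with LPS. Between 0 and 3 of the 10 markers were at 0 in a library, most often the myelin genes Mog and Mag. Sema5a, a membrane semaphorin that binds plexin-B3, was at 16, 25.8 and 15.3 CPM in buffer, 4.33, 7.18 and 6.7 CPM with ENV, 0.202, 0.0726 and 2.55 CPM in H2O and 0.127, 0.131 and 2.63 CPM with LPS. Its receptor Plxnb3 was at 19.9, 32.3 and 18.9 CPM in buffer, 6.21, 10.6 and 10.9 CPM with ENV, 0, 0.17 and 2.69 CPM in H2O and 0.0253, 0.0783 and 0.578 CPM with LPS. Both were highest in buffer and near 0 in H2O replicates 1 and 2, with H2O replicate 3 between. The match with the markers was loose. ENV replicate 2 and H2O replicate 3 had similar marker sums (173 and 179 CPM) but 7.18 and 2.55 CPM of Sema5a. Unc5c, a netrin receptor, was at 9.77, 14.5 and 9.84 CPM in buffer and 0.0757, 0.0969 and 2.93 CPM in H2O, Draxin at 2.49, 6.3 and 4.65 CPM and 0.101, 0.0242 and 0.866 CPM, and Ephb1 at 2.79, 4.66 and 3.87 CPM and 0.0505, 0.0242 and 0.866 CPM. These 3 genes followed the same order.

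ENV calls in this set were those of Sema5a (-1.45 ± 0.26, adjusted p = 0.00663) and Plxnb3 (-1.15 ± 0.27, adjusted p = 0.0181). Draxin gave -1.69 (adjusted p = 0.0705), Sema5b -0.94 (adjusted p = 0.068) and Unc5c -0.79 (adjusted p = 0.0543), which with the replicate block became called, at adjusted p = 0.0146, 0.0177 and 0.0178. Summed neuronal markers ran the same way as the oligodendrocyte markers, at 29.6 to 61.9 CPM in buffer, 15.3 to 31.6 with ENV, 1.51, 1.43 and 17.8 in H2O and 1.67, 1.10 and 12.5 with LPS. Summed astrocyte markers were at 240.0, 257 and 294.3 CPM in buffer, 116, 147 and 237 with ENV, 62.8, 76.1 and 285 in H2O and 45.5, 24.5 and 27.8 with LPS, so that H2O replicate 3 again stood with the buffer libraries. The vehicle-treated astrocyte cultures held Unc5c at 97.7 to 182 CPM, Draxin at 15 to 31.1 CPM and Ephb1 at 22.7 to 69.7 CPM. The part of any of these cell types in the levels of these genes was not tested.

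**Figure D3:**
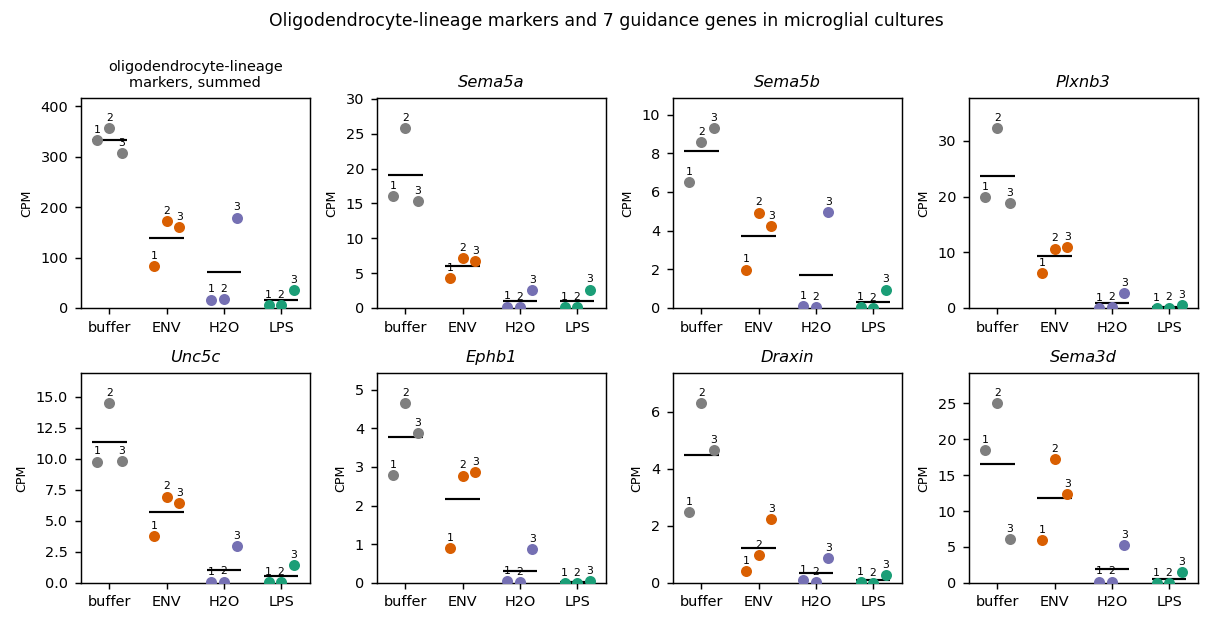
Summed CPM of 10 oligodendrocyte-lineage markers (first panel) and CPM of 7 guidance genes in the 12 microglial libraries, on linear axes from 0, with points labelled by replicate number and bars at the group mean. In all 8 panels the buffer libraries average highest and libraries 1 and 2 of the H2O and LPS groups lie near 0.

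Several of these genes also differed between the microglial vehicles once H2O replicate 3 was left out. Between H2O and buffer, 0 of 54 members tested and 0% of all 12900 genes were called by edgeR. At an unadjusted p under 0.05 there were 15 members, and DESeq2 called 1 member higher and 6 lower. The shares over all genes for these counts are not given, so they do not set the members apart. Without H2O replicate 3, 21 of 55 members were called lower in H2O and 0 higher, against 10.4% of all genes called lower. These 21 included Sema3a, Sema3d, Sema5a, Sema5b, Sema6a, Plxnb1, Plxnb3, Unc5c, Ephb1, Draxin and Ntn1. In astrocytes, 0 of 61 members and 0% of all genes were called between H2O and buffer by edgeR, with 0 members at an unadjusted p under 0.05 and 0 by DESeq2.

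**Figure D4:**
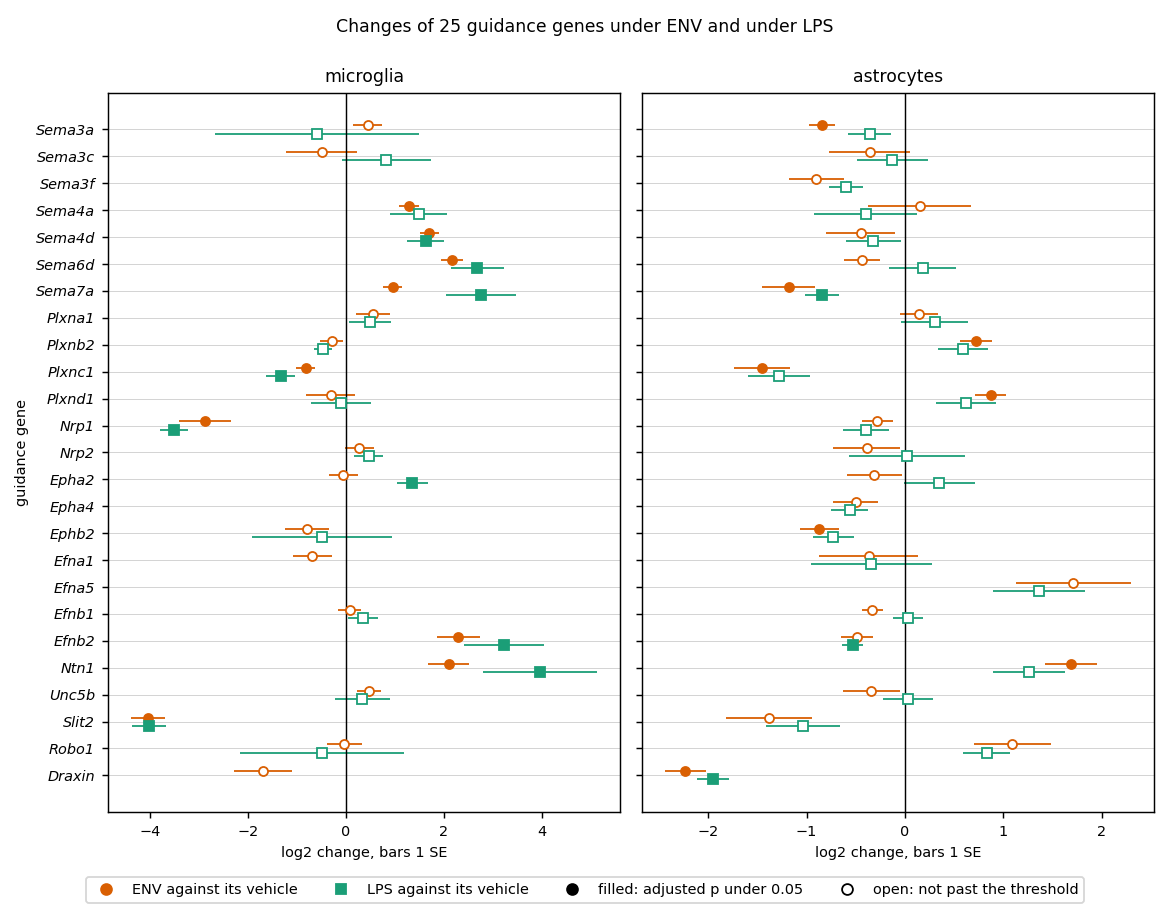
Log2 change (edgeR) of 25 guidance genes in microglia (left) and astrocytes (right), with ENV against buffer as circles and LPS against H2O as squares, bars of 1 SE, and filled symbols for an adjusted p under 0.05; genes too low to be tested have no symbol, and the horizontal scales of the panels differ. Sema7a and Efnb2 lie above 0 in microglia and below 0 in astrocytes, while Ntn1 lies above 0 in all 4 comparisons.

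In astrocytes, ENV lowered more guidance genes than it raised. Of 61 members tested (9 were too low or not listed), 5 were higher and 18 lower, 37.7% in all, against 17.9% of all genes. The genes called lower made up 8.35% of all genes tested, and those called higher 9.52%. The median log2 change of the tested members was -0.47, against 0.02 over all genes. With the replicate number as a block, 9 were higher and 29 lower, against 29.1% of all genes. Summed fibroblast and mural cell markers were 4569, 6724, 5772 and 1559 CPM in buffer and 1191, 1958, 1726 and 1021 CPM with ENV. Summed neuronal markers were 558 to 850.2 CPM in buffer and 277 to 463 CPM with ENV, and astrocyte markers 8938 to 11650 and 4623 to 8354 CPM. Microglial markers were 180.0 to 589.8 CPM in buffer and 142 to 356 CPM with ENV, and ependymal and choroid plexus markers 7.42 to 14.9 and 2.62 to 4.81 CPM. The part of these cell types in the falls was not tested.

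The ligands Sema5b and Draxin had the largest called falls, followed by the receptors Plxnc1 and Epha3, which are given further on. Draxin went from 31.1, 21.5, 24.1 and 19.4 CPM in buffer to 6.1, 4.56, 5.72 and 3.97 CPM with ENV (-2.23 ± 0.20, adjusted p = 0.00061). Sema5b, a membrane semaphorin with thrombospondin repeats, went from 26.6, 28.9, 45.1 and 38.5 to 4.82, 8.55, 8.65 and 4.04 CPM (-2.39 ± 0.30, adjusted p = 0.00189). In both genes every ENV library was far below the lowest buffer library. Ntn4, a netrin related to laminins, went from 48.1, 53.4, 54.4 and 56.2 to 27.1, 28.4, 28.3 and 28.7 CPM (-0.90 ± 0.08, adjusted p = 0.000504), with little spread inside either group. Ntn3 went from 4.65, 6.69, 7.47 and 7.78 to 1.74, 2.7, 2.21 and 3.22 CPM (-1.41 ± 0.25, adjusted p = 0.00751). Sema7a went from 122, 145, 167 and 236 to 43.4, 80.6, 69.7 and 98.2 CPM (-1.18 ± 0.27, adjusted p = 0.0203), and Sema3a, the founding class 3 semaphorin, from 44.8, 38.1, 39.1 and 43.8 to 24.6, 22.6, 26.6 and 18 CPM (-0.84 ± 0.13, adjusted p = 0.00438). The groups were apart in all 6 genes. Draxin, Sema5b and Ntn3, like Sema3b and Sema4g below, were picked partly for lack of overlap, which is thus no separate support. Sema3b, another class 3 semaphorin, went from 5.99, 7.64, 8.21 and 6.37 to 1.81, 2.83, 3.15 and 3.32 CPM (-1.33 ± 0.24, adjusted p = 0.00748), and Sema4g from 31.9, 37.8, 53.8 and 44 to 11.8, 18.2, 20.4 and 22.4 CPM (-1.18 ± 0.22, adjusted p = 0.00977), again without overlap. Sema5a and Sema3e also fell (-1.14, adjusted p = 0.00649 and -1.12, adjusted p = 0.0237), as did the ephrin Efna3, at under 1 CPM (-1.38, adjusted p = 0.0499).

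Receptors moved in both directions. Plxnc1 fell from 35.1, 19.6, 27.9 and 50.0 to 12.7, 8.02, 15.2 and 11.5 CPM (-1.45 ± 0.29, adjusted p = 0.0114). Of the Eph receptors, Epha3 fell from 7.82, 10.7, 6.46 and 7.53 to 2.13, 3.33, 2.44 and 4.21 CPM (-1.42 ± 0.28, adjusted p = 0.0105) and Epha7 from 11.5, 5.17, 4.97 and 3.96 to 3.65, 2.45, 2.31 and 1.68 CPM (-1.33 ± 0.39, adjusted p = 0.0487). Buffer replicate 1 stood apart in Epha7, and without it the change was -0.89 (adjusted p = 0.0984). Epha5 and Ephb2 also fell (-1.06, adjusted p = 0.0399 and -0.87, adjusted p = 0.0204), as did Plxnb1 and Plxna3 (-0.50, adjusted p = 0.0246 and -0.34, adjusted p = 0.0304). Robo2, a receptor of Slits, rose from 16.9, 8, 7.04 and 14.8 to 71.1, 20.7, 72.9 and 91.5 CPM (2.47 ± 0.47, adjusted p = 0.0103), with replicate 2 the lowest treated library. Plxnb2 rose from 884, 867, 818 and 890.3 to 1283, 1065, 1760.0 and 1525 CPM (0.72 ± 0.17, adjusted p = 0.0205), and Plxnd1, the receptor of Sema3e, from 74, 82.8, 80.2 and 91.5 to 145, 108, 183 and 159 CPM (0.87 ± 0.16, adjusted p = 0.00854). Ephb4, the receptor of Efnb2, rose from 37.8, 38.6, 35.2 and 38 to 47.5, 46.3, 60.7 and 72.1 CPM (0.61 ± 0.15, adjusted p = 0.0263). The groups of these risers were apart, which was also a condition for picking them. Replicates 3 and 4 were the highest treated libraries in Plxnb2, Plxnd1 and Ephb4. The ligand Ntn1 rose too, from 51, 22.9, 53.7 and 42.9 to 134, 102, 176 and 126 CPM (1.69 ± 0.27, adjusted p = 0.00471).

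Several further genes passed the ENV test in astrocytes only with the replicate block. Slit2 was at 80.6, 111, 80.7 and 33.3 CPM in buffer and 28.9, 45.4, 29 and 14.2 CPM with ENV (-1.38 ± 0.43, adjusted p = 0.0614, and adjusted p = 0.000413 with the replicate block), lower in each of the 4 numbered pairs. Robo1 was at 14.2, 6.33, 10.6 and 17 CPM and 29.2, 10.2, 31.3 and 30.2 CPM (1.09 ± 0.39, adjusted p = 0.0907, and adjusted p = 0.00637 with the replicate block). Sema3f gave -0.90 (adjusted p = 0.0618), Efna5 1.71 (adjusted p = 0.0809), Efnb2 -0.49 (adjusted p = 0.0748), Epha4 -0.50 (adjusted p = 0.177), Efnb1 -0.33 (adjusted p = 0.0727) and Nrp2 -0.39 (adjusted p = 0.46). With the block their adjusted p-values were 0.00115, 0.0291, 0.0219, 0.0134, 0.0458 and 0.027, in that order. The block also added, with the log2 change and the adjusted p without and with it, Efnb3 (-1.11, 0.325 and 0.0441), Ephb1 (-1.54, 0.081 and 0.00141), Plxna2 (0.79, 0.21 and 0.0478), Plxna4 (-1.41, 0.0531 and 0.00456), Plxnb3 (-0.76, 0.0701 and 0.0138), Sema4c (0.63, 0.156 and 0.00772) and Sema4f (-0.66, 0.105 and 0.015). Neither fit called Sema3c (-0.36, adjusted p = 0.597), Sema4a (0.15, adjusted p = 0.881), Sema4d (-0.45, adjusted p = 0.41), Sema6d (-0.44, adjusted p = 0.133), Plxna1 (0.14, adjusted p = 0.676), Nrp1 (-0.28, adjusted p = 0.259), Epha2 (-0.31, adjusted p = 0.496), Efna1 (-0.37, adjusted p = 0.66) or Unc5b (-0.34, adjusted p = 0.457).

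**Figure D5:**
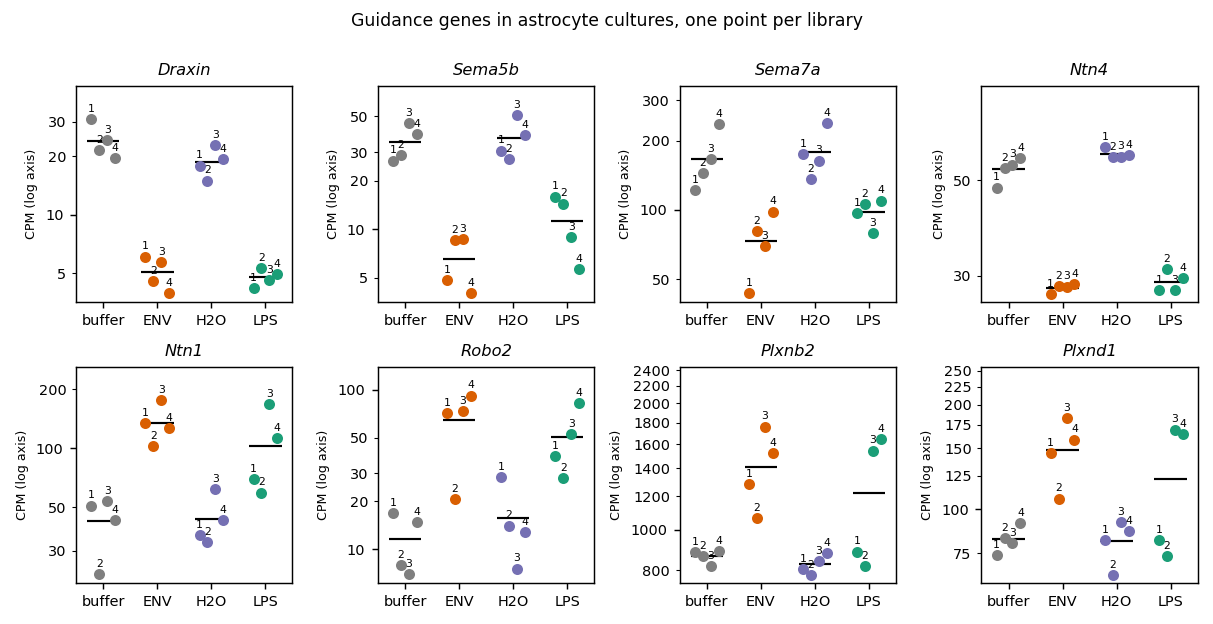
Levels of 8 guidance genes in the astrocyte cultures on a log axis of CPM, with 1 point per library labelled by its replicate number and the group mean as a bar. Draxin, Sema5b, Sema7a and Ntn4 are lower in all 8 treated libraries than in all 8 vehicle libraries, and in Plxnb2 and Plxnd1 the LPS replicates 1 and 2 lie with the vehicle libraries and 3 and 4 above them.

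LPS lowered a smaller set in astrocytes. Of 60 members tested (10 were too low or not listed), 0 were higher and 7 lower, 11.7% in all, against 5.34% of all genes (2.64% higher and 2.69% lower). The median log2 change of the tested members was -0.38, against 0.03 over all genes. With the replicate block the count was 3 higher and 18 lower, against 17.7% of all genes. DESeq2 called 4 higher and 14 lower, against 13.9% of all genes. Fibroblast and mural cell markers summed to 1930, 3500, 5663 and 1601 CPM in H2O and 1009, 1332, 1890 and 1202 CPM with LPS. Neuronal markers summed to 459 to 862 CPM in H2O and 288 to 468 CPM with LPS, astrocyte markers to 5709 to 11640 and 2616 to 8331 CPM, and microglial markers to 238 to 572 and 136 to 336 CPM. The part of these cells was not tested here either.

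The 7 falls were mostly ligands. Draxin went from 17.9, 15, 22.8 and 19.3 CPM in H2O to 4.21, 5.32, 4.62 and 4.97 CPM with LPS (-1.95 ± 0.17, adjusted p = 0.00282), and Ntn4 from 59.9, 56.7, 56.8 and 57.3 to 27.8, 31.1, 27.8 and 29.6 CPM (-0.97 ± 0.09, adjusted p = 0.00291). Both groups were tight and far apart. Sema5b went from 30.6, 27, 51 and 38 to 15.9, 14.4, 8.91 and 5.67 CPM (-1.70 ± 0.34, adjusted p = 0.0284), Sema5a from 13.6, 11.2, 20.6 and 29.3 to 6.78, 5.82, 8.3 and 7.95 CPM (-1.34 ± 0.30, adjusted p = 0.0421), and Ntn3 from 5.65, 5.47, 6.79 and 8.61 to 3.12, 2.28, 2.95 and 3.67 CPM (-1.12 ± 0.23, adjusted p = 0.0298). Sema7a went from 175, 136, 164 and 239 to 96.5, 106, 79.5 and 109.8 CPM (-0.84 ± 0.17, adjusted p = 0.03) and Efnb2 from 79.7, 74.3, 69.8 and 85.1 to 46.2, 60.2, 51.3 and 53.3 CPM (-0.53 ± 0.11, adjusted p = 0.0292). None of the 7, picked by their call, overlapped between groups, and the share of such genes over all genes was not counted. The netrins and Draxin were the role with the largest share called, 3 of 4 tested. Ntn1, the fourth, was at 36.2, 33.1, 61.8 and 43.2 CPM in H2O and 69.3, 59.3, 168 and 112 CPM with LPS (1.26 ± 0.36, adjusted p = 0.0917, and adjusted p = 0.00631 with the replicate block).

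Several members split between LPS replicates 1 and 2 and replicates 3 and 4. Plxnb2 was at 887, 819, 1544 and 1646 CPM with LPS, against 807, 779, 841 and 879.9 CPM in H2O (0.59 ± 0.25, adjusted p = 0.23). Plxnd1 was at 81.8, 73.5, 169.6 and 164 CPM against 81.6, 64.9, 92 and 86.7 CPM (0.62 ± 0.30, adjusted p = 0.296), and Ephb4 at 30.9, 28, 63.4 and 75.1 CPM against 34.7, 38.4, 37.4 and 36.1 CPM (0.46 ± 0.33, adjusted p = 0.487). In all 3 genes only LPS replicates 3 and 4 stood well above the H2O libraries. Nrp2 ran the other way, at 593, 706, 141 and 138 CPM against 526, 518, 275 and 229 CPM (0.02 ± 0.59, adjusted p = 0.991), and replicates 3 and 4 alone gave -0.81 (adjusted p = 0.0493). Epha2 was at 72.3, 84.6, 22.2 and 45.5 CPM against 42.1, 38.7, 38.9 and 58.2 CPM (0.35 ± 0.36, adjusted p = 0.653) and Sema6d at 49.6, 44.1, 21.1 and 15.7 CPM against 33, 25.3, 26.9 and 30.7 CPM (0.18 ± 0.34, adjusted p = 0.826), both above H2O in LPS replicates 1 and 2 and below it in 3 and 4. Replicates 1 and 2 alone gave 5 higher and 18 lower (20.1% of all genes called), and replicates 3 and 4 alone 3 higher and 8 lower (5.96%). Draxin, Ntn4, Sema5a, Sema5b, Ephb1, Plxnc1 and Sema4g were called lower in each pair alone. Of these, Ephb1, Plxnc1 and Sema4g were not called in the main fit.

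The same subsets were fitted in the ENV set of astrocytes, where having fewer libraries can by itself end calls. Replicates 1 and 2 alone gave 0 higher and 4 lower (2.48% of all genes called), namely Draxin, Epha5, Ntn4 and Sema3a. Replicates 3 and 4 alone gave 5 higher, Efna5, Ephb4, Ntn1, Plxnd1 and Robo2, and 6 lower, Draxin, Ephb1, Ephb3, Ntn4, Sema4g and Sema5b (6.23%). Among genes called in neither subset, the changes were close for Ntn3 (-1.42 and -1.43) and Plxnc1 (-1.46 and -1.48). For Plxnb2 they were further apart (0.36 and 1.01). Over single libraries left out, 13 of the 23 ENV calls held each time, among them Draxin, Sema5b, Ntn1, Ntn4, Robo2 and Plxnd1, and the count fell to 14 without buffer replicate 3. Plxnb2 was lost without buffer replicate 1 (adjusted p = 0.056) or 3 (0.0712), Sema7a without ENV replicate 3 (0.0526) or buffer replicate 3 (0.0502), and Ephb4 without ENV replicate 3 (0.0703) or buffer replicate 1, 3 or 4 (up to 0.0829). Ephb2 was lost without buffer replicate 2 or 3 (up to 0.0602), Plxnb1 without ENV replicate 1 or buffer replicate 3 or 4 (up to 0.0579), and Sema3e without ENV replicate 1 or 3 or buffer replicate 1, 2 or 3 (up to 0.0673). Epha5, Epha7, Efna3 and Plxna3 were each lost without most of the 8 libraries, with adjusted p up to 0.0965, 0.113, 0.118 and 0.0879. The joint fit ended the calls of Ephb4 (0.149), Epha5 (0.0608), Sema3e (0.0573) and Plxnb1 (0.0529), and the fit without a filter those of Efna3 (0.0785) and Epha7 (0.0521). Of the 7 LPS calls, Draxin and Ntn4 held without each library, and the count was 2 to 4 whichever was left out. Sema5b, Sema5a, Ntn3, Sema7a and Efnb2 were each lost without at least 5 of the 8 libraries, with adjusted p up to 0.0877, 0.128, 0.098, 0.0829 and 0.0792.

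The remaining genes of the astrocyte LPS comparison were not called. Slit2 gave -1.04 (adjusted p = 0.161), Plxnc1 -1.28 (adjusted p = 0.0598), Ephb2 -0.73 (adjusted p = 0.0884), Sema3f -0.60 (adjusted p = 0.0917) and Robo1 0.83 (adjusted p = 0.0907). With the block these were called, at adjusted p = 0.0331, 0.00662, 0.00892, 0.0439 and 0.0225. Robo2, at 28.3, 14.1, 7.59 and 12.8 CPM in H2O and 38.5, 28, 52.6 and 81.9 CPM with LPS, gave 1.70 ± 0.46 (adjusted p = 0.0772), and the replicate block gave adjusted p = 0.0644. Sema3a (-0.36, adjusted p = 0.397), Sema3c (-0.13, adjusted p = 0.89), Sema4a (-0.40, adjusted p = 0.735), Sema4d (-0.32, adjusted p = 0.586), Plxna1 (0.30, adjusted p = 0.686), Epha4 (-0.56, adjusted p = 0.135), Efna1 (-0.34, adjusted p = 0.818), Efna5 (1.36, adjusted p = 0.142), Efnb1 (0.03, adjusted p = 0.933) and Unc5b (0.03, adjusted p = 0.967) were called by neither fit. Nrp1 gave -0.40 (adjusted p = 0.381), and the replicate block gave adjusted p = 0.0352. The block also added, with the same 3 values each, Epha3 (-0.77, 0.257 and 0.0408), Ephb1 (-1.40, 0.166 and 0.0278), Plxna2 (0.76, 0.31 and 0.0178), Plxnb1 (-0.39, 0.334 and 0.0119), Plxnb3 (-0.61, 0.424 and 0.0288), Sema4f (-0.68, 0.224 and 0.0171) and Sema4g (-1.12, 0.155 and 0.00399). The difference between the ENV and LPS changes in astrocytes was called by edgeR for 0 of 61 members and 0% of all 15496 genes, with 0 members at an unadjusted p under 0.05 and 0 by DESeq2.

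The same agent moved several genes differently in the 2 cell types. The difference of the ENV changes, microglia minus astrocytes, was called for 13 of 64 members tested, 10 above 0 and 3 below, 20.3% against 14.9% of all genes (6.87% above and 8.07% below). With the replicate block 17 lay above and 7 below, against 24.8% of all genes. For LPS it was called for 9 of 63, 5 above and 4 below, 14.3% against 12.5% of all genes (5.32% and 7.14%), and 8 and 8 with the block, against 22.8%. Cell type cannot be told apart from the separate preparations in these tests.

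Sema7a moved in opposite directions. The ENV difference was 2.13 ± 0.37 (adjusted p = 0.00263) and the LPS difference 3.57 ± 0.68 (adjusted p = 0.00595), with rises in microglia and falls in astrocytes that were each called. Efnb2 rose in microglia and had negative changes in astrocytes, with differences of 2.77 ± 0.40 (adjusted p = 0.000815) and 3.76 ± 0.72 (adjusted p = 0.00614); the astrocyte change was called with LPS and not with ENV. Sema6d and Sema4d rose in microglia and did not pass in astrocytes, and their differences were 2.62 ± 0.31 (adjusted p = 0.00019) and 2.16 ± 0.46 (adjusted p = 0.00783) for ENV and 2.48 ± 0.65 (adjusted p = 0.028) and 1.90 ± 0.48 (adjusted p = 0.0234) for LPS. Nrp1 and Slit2 fell in microglia with both agents. In astrocytes they were called only with the replicate block, Slit2 with both agents and Nrp1 with LPS, also lower. The differences for Nrp1 were -2.58 ± 0.52 (adjusted p = 0.00609) for ENV and -3.13 ± 0.37 (adjusted p = 0.00044) for LPS, and those for Slit2 -2.66 ± 0.65 (adjusted p = 0.0169) and -2.99 ± 0.57 (adjusted p = 0.00614). Plxnb2 rose with ENV in astrocytes and not in microglia (-1.01 ± 0.29, adjusted p = 0.0329). Ntn1, which rose in both cell types with ENV, gave a difference of 0.41 (adjusted p = 0.654) for ENV and 2.73 (adjusted p = 0.134) for LPS, where the replicate block gave adjusted p = 0.000647. Plxnc1 fell with ENV in both and gave 0.63 (adjusted p = 0.303). Without each library in turn, Efna2, Efnb2, Nrp1, Sema4d, Sema6d and Sema7a held for ENV. Slit2 was lost only without ENV replicate 1 of microglia (adjusted p = 0.0517), and Plxnb2 without 9 of the 14 libraries (up to 0.085). For LPS, Efnb2, Ephb4, Nrp1, Sema4c, Sema7a and Slit2 held. Sema4d was lost without H2O replicate 1 or 3 or LPS replicate 2 of microglia (up to 0.0587), and Sema6d without H2O replicate 1 of either cell type or LPS replicate 2 of microglia (up to 0.0539). The ENV count was 7 or 8 without buffer replicate 1 or 2 or ENV replicate 1 or 3 of microglia or buffer replicate 3 of astrocytes. Ephb4 was at 0 to 0.398 CPM over the microglial libraries, close to the limit of detection.

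Partners of these proteins outside the 70 genes were counted from a list of 86 co-receptors, other ligands, adaptors, kinases and proteases. In microglia, 13 of 77 tested rose and 8 fell with ENV, and 8 of 67 rose and 7 fell with LPS. Over all genes 16.2% rose and 14.7% fell with ENV and 16% and 13.8% with LPS. In astrocytes, 6 of 84 rose and 12 fell with ENV (9.52% and 8.35% of all genes), and with LPS (2.64% and 2.69%) 1 of 82 rose, Cd72, and 1 fell, the protease gene Adam10. Cd72, a receptor of Sema4d, rose in all 4 comparisons. In microglia it rose by 2.77 with ENV (adjusted p = 0.000281) and 2.73 with LPS (0.0316). In astrocytes it averaged 0.0857 CPM in buffer and 0.0922 CPM in H2O, near the limit that a count of 0 allows, and 4.61 ± 3.17 CPM with ENV and 4.00 ± 2.66 CPM with LPS (SD, n = 4 libraries, edgeR adjusted p = 0.00547 and 0.0113). In vehicle-treated microglia it averaged 63.3 and 64.9 CPM, and the part of the microglia among the astrocytes in its level was not tested. Trem2, a microglial receptor that pairs with plexin-A1, fell with ENV in microglia (-2.81, adjusted p = 0.00012) and in astrocytes (-3.01, 0.0472), and with LPS in microglia (-2.60, 0.0359). Trem2 is itself a microglial marker, and the part of the microglia among the astrocytes in its fall there was not tested. Neo1, a netrin receptor, fell in microglia with ENV (-0.89, adjusted p = 0.00933) and LPS (-2.06, 0.00352) and in astrocytes with ENV (-0.50, 0.038). Chn2, a Rac-inactivating chimaerin, fell in the same 3 comparisons (-1.89, -3.21 and -1.97, adjusted p = 0.000565, 0.015 and 0.0141). Srgap2, an adaptor of Robo receptors, rose in microglia with ENV (1.13, adjusted p = 0.00215) and LPS (1.24, 0.00876).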

How the data were processed

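Total RNA (150 ng) was converted to mRNA libraries. The submitters' processing notes name HISAT2, StringTie (1.3.3b) and the rat build mRatBN7.2, without saying which step each served. The deposited files hold raw read counts per gene symbol for each library, over 23139 symbols in microglia and 20268 and 20056 in the ENV and LPS sets of astrocytes. Members were matched by symbol, and both the members and the gene lists were chosen with earlier results of these data known. Fold changes come from edgeR (4.0.16) quasi-likelihood tests with TMM scaling and its default expression filter, 2 groups at a time, with Benjamini-Hochberg adjustment over all genes tested. A call means an adjusted p under 0.05. Comparisons between agents or cell types are interaction terms, and residual degrees of freedom were 4 to 12. Simulated counts with known changes were used to test the scripts. CPM values are counts divided by the library total. Alternatives were DESeq2 (1.42.0), DESeq2 size factors, no filter, a joint fit of 4 groups, leaving out each library, numbered subsets and the replicate number as a block.

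Libraries of the same number deviated together from their group means. The lowest correlation of such pairs was 0.32 and 0.42 with ENV and LPS in microglia, and 0.26 and 0.53 in astrocytes. The highest correlation of pairs with unlike numbers was 0.07 and 0.2 with ENV and LPS in microglia, and 0.13 and 0.53 in astrocytes. With LPS in astrocytes, LPS replicate 2 correlated equally (0.53) with H2O replicates 1 and 2. The replicate numbers in the sample titles may thus pair the libraries in these 4 comparisons, least clearly with LPS in astrocytes. The main fits did not use this pairing, and the replicate block is the alternative fit that did. Between the astrocyte vehicles the lowest correlation of same-number pairs was 0.29, between the microglial vehicles -0.16. No pair of libraries agreed within sampling noise. Genes named with a value in every library were the 8 largest rises and falls called per treated comparison. These were taken only where the groups did not overlap and the higher group averaged at least 2 CPM. Lack of overlap in them is thus no separate support for a call, and its share over all genes was not counted. A panel of 25 genes, and others where a subfamily is described, were named too.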

Additional observations from a re-analysis of the deposited data

Results flagged for a closer look

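Over the 70 genes, 233 astrocyte groups of 4 libraries had a library at 1 CPM or more, and in 6 of them 1 library stood far from the others, where chance alone sets about 1 in 20 apart. Epha1 was at 1.487 CPM in buffer replicate 3 and 0.7432 to 0.8267 CPM in the other buffer libraries. Ntn5 was at 2.028 CPM in H2O replicate 4 and 0.3351 to 0.437 CPM in the others, and Sema3g at 2.361 CPM in ENV replicate 4 and 0.2835 to 0.4403 CPM in the others. Epha7 was at 11.51 CPM in buffer replicate 1 and 3.963 to 5.167 CPM in the other buffer libraries. Plxna2 was at 76.68 CPM in buffer replicate 4 and 22.02 to 29.35 CPM in the others. Robo1 was at 10.19 CPM in ENV replicate 2 and 29.2 to 31.34 CPM in the others.

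The response to ENV differed between microglia and astrocytes, by edgeR's interaction test, in 13 genes. The microglial minus the astrocyte log2 change was positive for Efnb2 (2.77, adjusted p = 0.000815), Epha3 (2.65, 0.0438), Sema6d (2.62, 0.00019), Slit3 (2.50, 0.0348), Sema4d (2.16, 0.00783), Sema7a (2.13, 0.00263), Epha1 (2.10, 0.0388), Efna2 (1.44, 0.00847), Sema3a (1.28, 0.0195) and Sema4b (0.91, 0.0415). It was negative for Slit2 (-2.66, 0.0169), Nrp1 (-2.58, 0.00609) and Plxnb2 (-1.01, 0.0329). Epha3 lay at 0 to 0.132 CPM in these microglial libraries, and its call was lost with the replicate block (adjusted p = 0.0652) and without the filter on low counts (0.0502).

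The response to LPS differed in 9 genes. The same difference was positive for Efnb2 (3.76, adjusted p = 0.00614), Sema7a (3.57, 0.00595), Sema4c (3.09, 0.00927), Sema6d (2.48, 0.028) and Sema4d (1.90, 0.0234). It was negative for Ephb4 (-3.63, 0.0134), Nrp1 (-3.13, 0.00044), Slit2 (-2.99, 0.00614) and Plxna4 (-2.19, 0.0259).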

How the results depend on the processing

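Depth limits the low genes, with 3 counts at 0.0702 to 0.126 CPM, and 3 or 4 libraries a group limit the rest. Counts of called members moved by more than 1.5 times as follows. The joint fit of 4 groups gave 12 for ENV in microglia (20 alone) and 13 for LPS in astrocytes (7 alone). The replicate block gave 38 for ENV and 21 for LPS in astrocytes, 24 for the ENV and 16 for the LPS difference between cell types. DESeq2 gave 18 for LPS in astrocytes, 14 for the LPS difference between cell types and 7 for the microglial vehicles. In astrocytes, replicates 1 and 2 alone gave 4 with ENV and 23 with LPS, and replicates 3 and 4 alone 11 and 11. Leaving out 1 library gave 4 to 16 for LPS in microglia, 14 to 26 for ENV and 2 to 4 for LPS in astrocytes, 7 to 14 for the ENV difference between cell types and 0 to 21 for the microglial vehicles. The cause was not tested. Other counts stayed within 1.5 times. In the 4 treated comparisons the calls of single genes that the block changed are given beside them.

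The sign turned only in genes without a call. In microglia with LPS, the block gave 0.53 for Ephb2, and replicates 1 and 2 alone gave -1.22 for Sema3c and -0.07 for Unc5b. In astrocytes with ENV, replicates 3 and 4 alone gave 0.01 for Sema3c and -0.11 for Sema4a. In astrocytes with LPS they gave -0.08 for Efnb1, -0.47 for Epha2, -0.81 for Nrp2, -0.60 for Sema6d and -0.28 for Unc5b, and the block gave -0.25 for Nrp2 and -0.02 for Unc5b. Leaving out 1 library in turn gave, in microglia with ENV, -0.0044 to 0.20 for Efnb1, -0.23 to 0.14 for Epha2, -0.69 to 0.09 for Plxnd1 and -0.20 to 0.25 for Robo1. In microglia with LPS it gave -1.26 to 2.71 for Ephb2, -0.88 to 0.36 for Plxnd1, -5.15 to 0.82 for Robo1, -5.50 to 3.54 for Sema3a, -0.87 to 1.30 for Sema3c and -0.39 to 0.67 for Unc5b. In astrocytes it gave -0.70 to 0.11 for Efna1 and -0.20 to 0.44 for Sema4a with ENV. With LPS it gave -0.65 to 0.09 for Efna1, -0.05 to 0.15 for Efnb1, -0.43 to 0.30 for Nrp2, -0.38 to 0.09 for Sema3c, -0.09 to 0.41 for Sema6d and -0.19 to 0.22 for Unc5b.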
